A study of Mus musculus with 4 samples.

Results

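Protein tyrosine phosphatases and dual-specificity phosphatases were described on 4 expression arrays that follow mouse dendritic cells from bone marrow progenitors in culture. Genes were chosen by symbol, as those whose name begins with Ptpn, Ptpr, Ptp4a or Dusp, and each gene was read by its brightest probe set on average. The rule found 43 genes of 8220 with 1 named gene per probe set, and 26 of them passed 400 units of scaled intensity on at least 1 array. Over all genes 4829 did so. Of the 26, 25 encode proteins of the phosphatase families and 1, Ptprcap, encodes a small membrane protein that binds CD45 and is no phosphatase; it is given with its values and left out of the counts.

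The groups were dendritic cell progenitors from bone marrow, which the label of the TNF sample describes as amplified in vitro, cells differentiated from them for 7 days, cells differentiated for 10 days, and 10-day cells that received the maturation cytokine TNF for 16 hours. Each group is 1 array of total RNA, so each comparison sets 1 array against another and no p-value is given. Mouse strain, sex and age, the cytokines of the culture and the number of cultures behind an array are not stated in the labels. These are bulk cultures, in which fewer cells of a type and less RNA per cell cannot be told apart. The labels name no sort or gate, so the cultures may hold other cells than dendritic cells.

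Phosphatases of these families remove phosphate from tyrosine, and the dual-specificity members also from serine and threonine. Receptor types span the membrane, non-receptor types act in the cytosol, nucleus or on inner membranes, and many dual-specificity phosphatases switch off MAP kinases, the enzymes ERK, JNK and p38. In leukocytes CD45 (Ptprc) activates Src-family kinases, SHP-1 (Ptpn6) carries the signal of inhibitory receptors, and Dusp1 limits p38 and JNK signalling after inflammatory stimuli.

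Markers fixed for the named cell types were read first. Of 16 dendritic cell markers above 400 units, 15 were at least 2-fold higher at day 7 than in the progenitor and 1, Flt3, was lower, while Zbtb46 and Dpp4 stayed under 400 units on all 4 arrays. Of 7 progenitor markers above 400 units, 6 were at least 2-fold lower at day 7 and 1, Kit, was 2.02-fold higher. Granulocyte markers were bright in the cultures, with summed levels of 118718 units for the progenitor, 112999 at day 7, 146430 at day 10 and 18515 with TNF. Of 9 measured macrophage markers 6 lay above 400 units on each array, although not the same 6, with summed levels of 12254, 46340, 76851 and 46066 units in the same order. Of 7 measured T and NK cell markers 1, Cd4, passed 400 units on any array, with summed levels of 349 to 813 units, and Cd3e was below 0 on all 4. Of 5 measured B cell markers 3 passed 400 units on at least 1 array, with summed levels of 4431 to 4945 units. The 9 probe sets for bacterial transcripts added to the samples were brighter at day 10 than at day 7, by a median of 1.50 on the log2 scale. Their medians were 1.18 at day 10 against progenitor, -0.34 at day 7 against progenitor and -0.50 for TNF against day 10. Probe sets with a mean of 6400 to 12800 units, among them those of Ptpn1 and Ptpn6, had a median of 0.20 at day 10 against day 7. The median was 0.04 for those of 1600 to 6400 units, and no phosphatase gene had a mean above 12800 units.

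The only error these arrays hold is the disagreement between the 2 probe sets of a gene with the highest means. Divided by the square root of 2, its SD for a single log2 ratio was 0.44 (389 genes) between day 7 and progenitor, 0.51 (385 genes) between both untreated culture times, 0.57 (354 genes) between day 10 and progenitor, and 0.40 (380 genes) between the TNF array and its untreated counterpart. It covers probe sets only, and neither cultures nor hybridisations. Ratios were taken with values below 400 units raised to 400, and a fold whose dimmer side lay at or under 400 is written as "at least". Intensities of different probe sets are not set against each other.

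**Figure D1:**
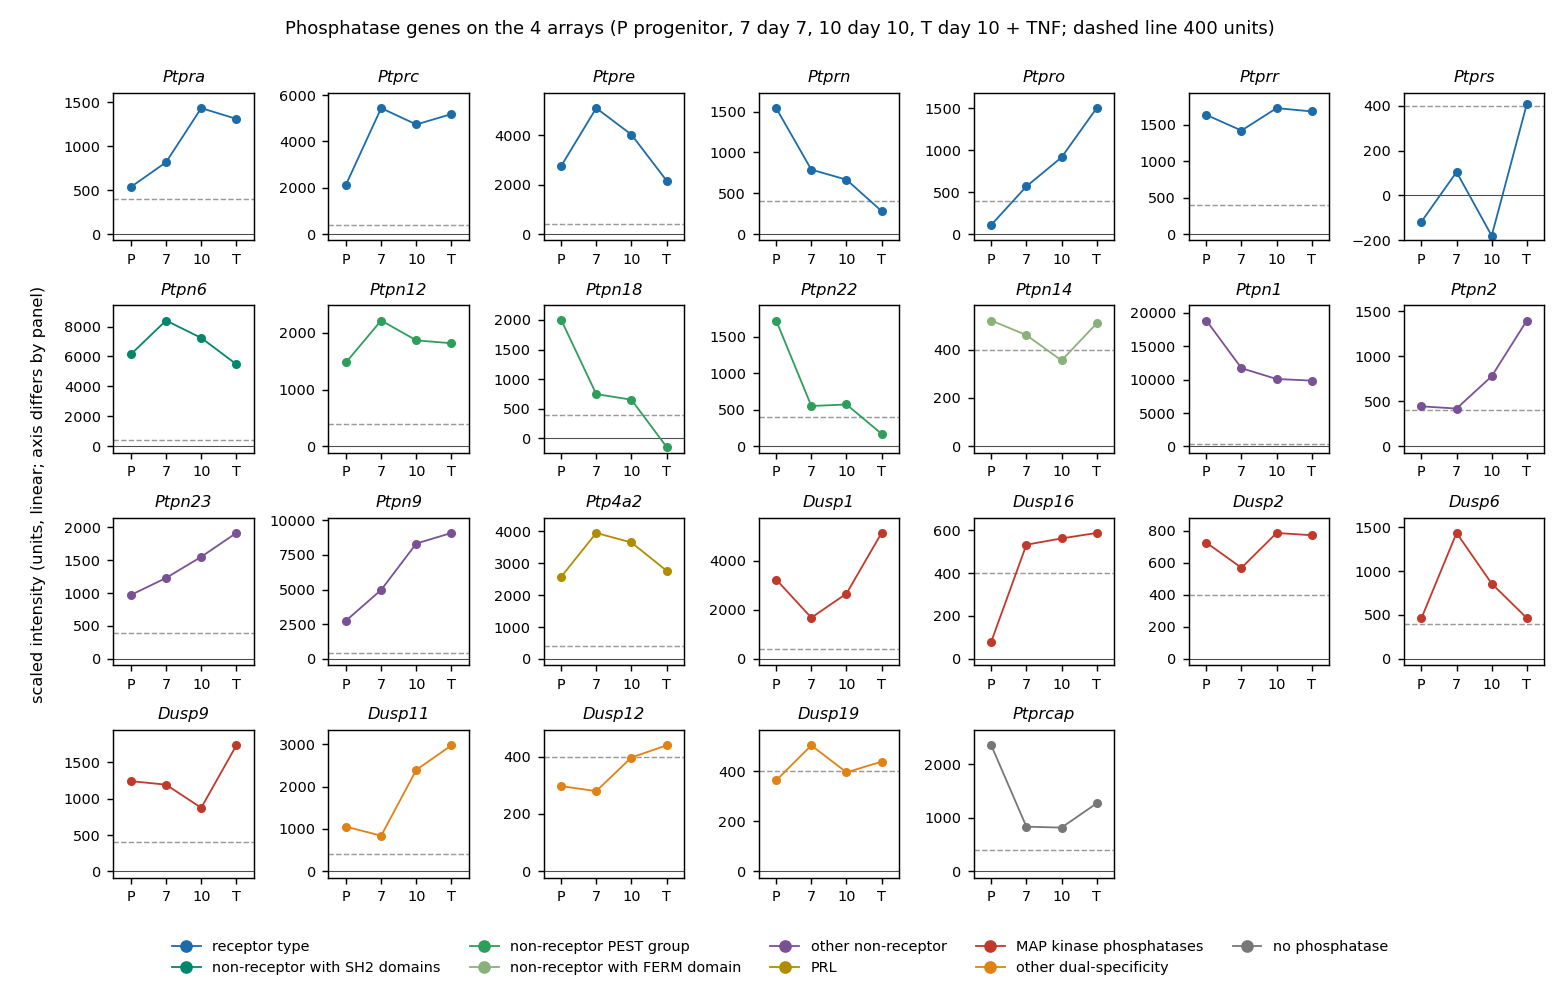
Scaled intensity (y axis, linear units, a different range in each panel) of the 26 described genes, with the 4 arrays along the x axis (P progenitor, 7 day 7, 10 day 10, T day 10 with TNF), 1 point per array and lines joining the points as a guide. Ptprc and Dusp6 are lowest on the progenitor array, Ptpn18, Ptpn22 and Ptprn are highest there, and Ptpro and Ptpn9 are higher on each later array.

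Day 7 was set against the progenitor to ask which phosphatase genes differ between these arrays. Ptprc and Dusp6 were higher at day 7 and the PEST-group genes Ptpn18 and Ptpn22 were lower, each by 2.55-fold to 3.11-fold. Of 23 phosphatase genes above 400 units on at least 1 of these arrays, 2 were higher and 2 lower by the 2-fold rule. Over all 4398 genes tested the shares were 10.6% higher and 9.85% lower, so 2 of 23 in each direction (8.70%) lies near the background. The phosphatases had a median log2 ratio of 0.33, against -0.06 over all genes tested.

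Ptprc encodes CD45, the abundant leukocyte phosphatase that removes the inhibitory phosphate from Src-family kinases. Its probe set lay at 2137 units for the progenitor, 5441 at day 7, 4734 at day 10 and 5183 with TNF. The progenitor array was the low one, and the 3 arrays of differentiated cells lay close together. Day 7 was 2.55-fold above the progenitor, a log2 ratio of 1.35 and about 3 times the probe-set SD of 0.44. A second Ptprc probe set was also lowest for the progenitor, at 989, 2360, 2601 and 2571 units, with a log2 ratio of 1.25 at day 7. Its highest array was day 10 and not day 7. The remaining Ptprc probe set lay below 0 on all 4 arrays.

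Ptprcap, whose product associates with CD45, went the other way. It lay at 2352 units for the progenitor, 833 at day 7, 816 at day 10 and 1269 with TNF. The progenitor array was the high one, 2.82-fold above day 7. The 2 genes therefore had log2 ratios of opposite sign between the same 2 arrays, 1.35 for Ptprc and -1.50 for Ptprcap. Ptprcap is known from lymphocytes. The summed T and NK cell markers were at 813 units for the progenitor and 419 at day 7. Summed B cell markers were at 4477 and 4431 units. Most of the B cell sum came from Ighm, at 2876 and 2520 units, and Pax5, at 857 and 1230. Cd79a and Ms4a1 stayed under 400 units on all 4 arrays. The part of T, NK or B cells in the Ptprcap level was not tested.

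The 3 members of the PEST group are cytosolic phosphatases with a proline-rich tail. Ptpn22, which restrains Src-family and Syk-family kinases in leukocytes together with the kinase Csk, lay at 1724 units for the progenitor, 554 at day 7, 575 at day 10 and 174 with TNF. It was 3.11-fold lower at day 7 than in the progenitor, and under 400 units with TNF. Ptpn18, first described in haematopoietic progenitors, lay at 2005, 748, 654 and -142 units in the same order and was 2.68-fold lower at day 7. Both genes were highest on the progenitor array and lowest on the TNF array. Ptpn12, which encodes PTP-PEST, a regulator of adhesion and the cytoskeleton, differed in direction. It lay at 1479, 2216, 1867 and 1816 units, 1.50-fold higher at day 7, a log2 ratio of 0.58. Of the 8 progenitor markers measured, Kit was lowest on the progenitor array and the others highest there. Their summed level was 111296 units for the progenitor, 19612 at day 7, 3764 at day 10 and 2578 with TNF. The part of residual progenitors in the 2 phosphatase levels was not tested. Csk itself, which Ptpn22 binds, lay between 4038 and 5462 units on the 4 arrays and differed by 1.27-fold between progenitor and day 7.

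Dusp6 encodes a cytosolic phosphatase specific for ERK, and is itself a target of ERK signalling. It lay at 462 units for the progenitor, 1433 at day 7, 857 at day 10 and 465 with TNF. The day 7 array was the high one, and the progenitor and TNF arrays were close to each other and just above 400 units. Day 7 was 3.10-fold above the progenitor, a log2 ratio of 1.63. With the floor at 800 units the log2 ratio of Dusp6 was 0.84, under 2-fold.

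Promoter windows were read for the genes at least 2-fold apart in this comparison, since these are the members that separate day 7 from the progenitor. Windows come from RefSeq on GRCm38.p6, and each line gives the 250 bases before the annotated start, 5′ to 3′ on the gene's strand. Capitals mark GAGGAA, an Ets core with a purine-rich flank, on either strand (TTCCTC on the other strand). Ets factors such as PU.1 bind letters of this kind. Ets cores with other flanking letters were not searched for and stay unmarked. A window without capitals may therefore still hold an Ets core. Ptprc is on chr1 on the minus strand (chr1:138175306-138175555), Dusp6 on chr10 on the plus strand (chr10:99262981-99263230), Ptpn22 on chr3 on the plus strand (chr3:103859545-103859794) and Ptpn18 on chr1 on the plus strand (chr1:34459496-34459745). For Ptprc and Ptpn22 the table holds 2 windows each, and the first is shown.
Ptprc: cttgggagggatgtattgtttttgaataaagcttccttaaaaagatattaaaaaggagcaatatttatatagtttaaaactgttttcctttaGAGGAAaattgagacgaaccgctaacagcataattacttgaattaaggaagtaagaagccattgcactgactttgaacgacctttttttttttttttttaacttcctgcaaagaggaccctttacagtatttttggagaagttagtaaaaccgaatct
Dusp6: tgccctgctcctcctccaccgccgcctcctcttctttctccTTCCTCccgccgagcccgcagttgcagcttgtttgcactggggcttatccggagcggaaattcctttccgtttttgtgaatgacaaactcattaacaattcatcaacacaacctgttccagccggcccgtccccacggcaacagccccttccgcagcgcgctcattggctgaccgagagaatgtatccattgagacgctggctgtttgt
Ptpn22: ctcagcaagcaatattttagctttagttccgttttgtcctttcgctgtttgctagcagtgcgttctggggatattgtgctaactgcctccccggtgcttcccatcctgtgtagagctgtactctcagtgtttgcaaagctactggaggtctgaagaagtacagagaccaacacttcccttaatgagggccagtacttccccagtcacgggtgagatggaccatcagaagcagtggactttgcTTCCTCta
Ptpn18: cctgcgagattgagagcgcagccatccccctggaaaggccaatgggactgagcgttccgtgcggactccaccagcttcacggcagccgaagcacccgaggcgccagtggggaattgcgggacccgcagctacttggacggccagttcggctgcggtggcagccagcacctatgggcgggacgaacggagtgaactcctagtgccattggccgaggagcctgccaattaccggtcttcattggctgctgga

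In the full windows of 300 bases, which run 50 bases past the start, GAGGAA on either strand occurred once each in Ptprc, Dusp6 and Ptpn22 and 0 times in Ptpn18. It occurred in the first window of 10 of the 21 described genes with a window in the table (47.6%), in any window of 12 of them, and in 28.3% of all 32851 windows. The remaining 5 described genes have no window there. Counts of genes below are of first windows unless another is named, and the shares of all windows include genes' further windows. Ptprc had the lowest GC content of these 4 windows, 33.7%, and with Ptpn22 it held the letters TATAAA, on either strand, which 2 of 21 first windows and 13.6% of all windows hold; in any window 3 of the 21 genes hold it. Ptpn18 and Dusp6 had GC contents of 63.0% and 57.3%, with 22 and 19 CG pairs, against a median of 7 over all windows. TGANTCA, the AP-1 letters, was found in 0 of the 21 first windows and in a further window of 1 gene, Ptpre, against 7.81% of all windows. A match in letters is a description and not a binding site.

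Other receptor-type genes did not pass the 2-fold rule at day 7. Ptpre, whose products include a receptor and a cytosolic form that act on Src-family kinases, lay at 2747 units for the progenitor, 5096 at day 7, 4026 at day 10 and 2165 with TNF. Its high array was day 7, 1.86-fold above the progenitor, a log2 ratio of 0.89. Ptprn, a catalytically inactive member known from secretory granules of neuroendocrine cells, lay at 1544, 789, 667 and 281 units. It was highest for the progenitor and lower on each later array, with a ratio of -0.97 at day 7 that falls just short of 2-fold. Its log2 ratio at day 10 against day 7, -0.24, lies within the probe-set SD of 0.51. Ptprr, known from neurons, lay between 1421 and 1729 units on all 4 arrays, a range of 1.22-fold.

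Among MAP kinase phosphatases Dusp1, a nuclear phosphatase whose substrates include p38 and JNK, had the opposite sign to Dusp6. It lay at 3228 units for the progenitor, 1675 at day 7, 2655 at day 10 and 5123 with TNF. Day 7 was the low array, 1.93-fold under the progenitor. Dusp2, a nuclear phosphatase of activated leukocytes, lay between 568 and 785 units, and Dusp16, which acts on JNK, was at 80 units for the progenitor and 532, 561 and 587 on the later arrays. For Dusp16 day 7 was at least 1.33-fold above the progenitor, and with the floor at the 40th percentile, 105 units, the log2 ratio was 2.34 in place of 0.41. Dusp9, an ERK phosphatase, was read by a probe set whose name marks it as shared within a gene family, at 1242, 1193, 874 and 1735 units. Its other probe set lay between -154 and 86 units on all 4 arrays, so the Dusp9 level rests on the shared probe set.

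**Figure D2:**
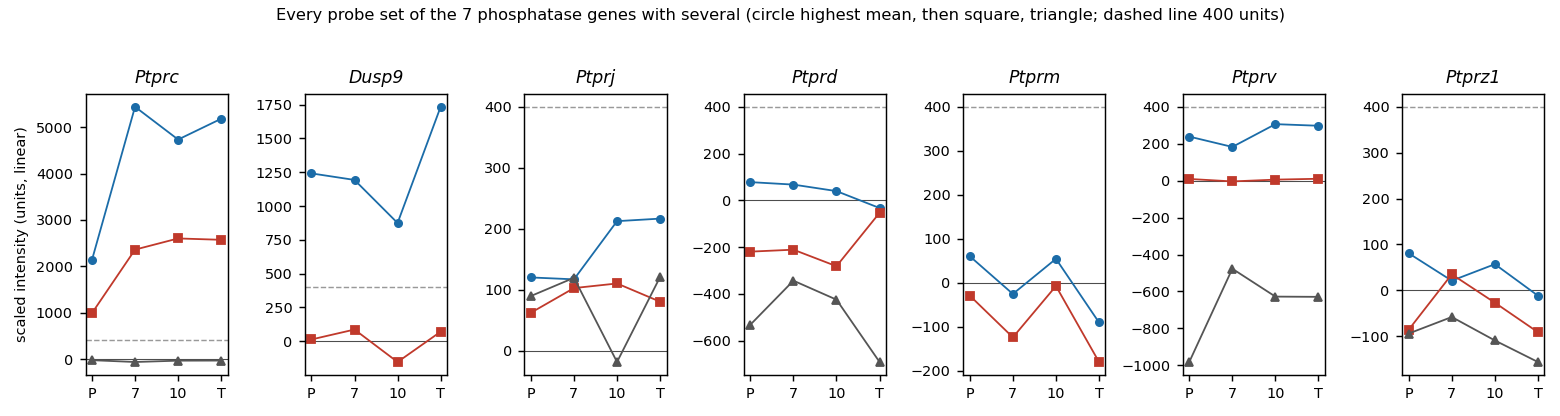
Scaled intensity (y axis, linear units, a different range in each panel) of every probe set of the 7 genes read by more than 1, with the 4 arrays along the x axis (P progenitor, 7 day 7, 10 day 10, T day 10 with TNF) and 1 line per probe set. The 2 brighter Ptprc probe sets are both lowest for the progenitor, the 2 Dusp9 probe sets do not follow each other, and all probe sets of Ptprj, Ptprd, Ptprm, Ptprv and Ptprz1 lie under 400 units.

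Day 10 was set against day 7 to ask how the last days of culture differ. Among phosphatases the one gene past 2-fold was Dusp11. Of 23 phosphatase genes tested, 1 was at least 2-fold higher and 0 lower, against 7.29% and 4.84% of 4417 genes. The median log2 ratio was -0.11, against 0.05 over all genes tested, and 16 of the 23 lay within 0.5 of 0. Regardless of sign the median was 0.33, against 0.37 over all genes tested, so the step was about as small for genes in general. Dusp11 encodes a phosphatase that acts on the 5′ end of RNA and is grouped with this family by its fold. It lay at 1054 units for the progenitor, 840 at day 7, 2393 at day 10 and 2972 with TNF. Day 10 was 2.85-fold above day 7, a log2 ratio of 1.51, and the TNF array was also above the earlier arrays. The probe sets for bacterial transcripts had a median of 1.50 in the same comparison. Whether the Dusp11 ratio is related to that shift was not tested.

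Day 10 set directly against the progenitor spans the whole course, and shares its arrays with the 2 steps above. Here 5 of 22 phosphatase genes were at least 2-fold higher (22.7%), against 17.3% of 4548 genes, and 3 were lower (13.6%), against 15.0%; both shares lie near the background. The higher genes were Ptprc, Ptpra, Ptpro, Ptpn9 and Dusp11, and the lower ones Ptpn18, Ptpn22 and Ptprn. The median log2 ratio was 0.41, against 0.02 over all genes tested.

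Ptpn9 encodes PTP-MEG2, which acts on secretory vesicles. It lay at 2756 units for the progenitor, 4976 at day 7, 8317 at day 10 and 9082 with TNF. Each later array was higher than the one before, and day 10 was 3.02-fold above the progenitor, a log2 ratio of 1.59. Ptpn23, which encodes HD-PTP, an endosomal sorting protein, had the same order at lower amplitude, at 971, 1228, 1549 and 1912 units and 1.60-fold at day 10. Its single steps, log2 ratios of 0.34, 0.33 and 0.30, lie within the probe-set SDs of 0.44, 0.51 and 0.40. The last step of Ptpn9, 0.13, does so too, so these neighbouring levels are not told apart.

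Ptpra, a receptor-type activator of Src-family kinases, lay at 537 units for the progenitor, 819 at day 7, 1435 at day 10 and 1313 with TNF. The 2 day 10 arrays were the high ones, at 2.67-fold for day 10 over the progenitor. With the floor at 800 units the log2 ratio of Ptpra was 0.84 in place of 1.42, under 2-fold. Ptpro, a receptor type known from podocytes and also found in leukocytes, lay at 110, 569, 915 and 1503 units. It was under 400 units on the progenitor array alone and highest with TNF, and day 10 was at least 2.29-fold above the progenitor. With the floor at 105 units its log2 ratio was 3.06 in place of 1.19, and with the floor at 800 units it was 0.19, so the size of the Ptpro difference depends on the floor.

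Ptpn1 encodes PTP1B, an enzyme of the endoplasmic reticulum that acts on insulin and cytokine receptors and their kinases. It lay at 18830 units for the progenitor, 11702 at day 7, 10086 at day 10 and 9847 with TNF. The progenitor array was the high one, and the other 3 lay close together. Day 10 was 1.87-fold lower than the progenitor, a log2 ratio of -0.90, and quantile normalization took it past 2-fold, to -1.44. Its near relative Ptpn2, whose product acts on JAK kinases and STAT factors, was lowest at day 7 and highest with TNF, at 445, 420, 779 and 1397 units. Both day 10 arrays of Ptpn2 were above the earlier arrays, 1.75-fold for day 10 over the progenitor. The earlier values lay just above 400 units. With the floor at 800 units the log2 ratio of Ptpn2 at day 10 against day 7 was 0.00 in place of 0.89.

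Ptpn6 encodes SHP-1, the phosphatase with SH2 domains that inhibitory receptors recruit. It lay at 6153 units for the progenitor, 8399 at day 7, 7239 at day 10 and 5485 with TNF, a range of 1.53-fold over the 4 arrays, and it was read by a probe set whose name marks it as shared between transcripts. Its relative Ptpn11, which encodes SHP-2, was read at -59 to 78 units and was not above 400 units on any array. Ptp4a2, a small phosphatase anchored to membranes by a lipid, lay at 2572, 3950, 3651 and 2767 units. Ptpn6, Ptp4a2, Ptpn12, Ptpre, Ptprc, Dusp6 and Dusp19 were the 7 phosphatase genes highest at day 7, Ptprc by its brightest probe set alone. That is 28.0% of 25, where 13.9% of all 4829 genes above 400 units were highest at day 7. The shares were 20% against 35.5% for the progenitor, 12% against 23.9% for day 10 and 40% against 26.8% with TNF. Apart from Dusp6, at -0.74, the log2 ratios of these genes at day 10 against day 7 ran from -0.11 (Ptp4a2) to -0.34 (Ptpre). Those lie within the probe-set SD of 0.51, so their day 7 and day 10 levels are not told apart.

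**Figure D3:**
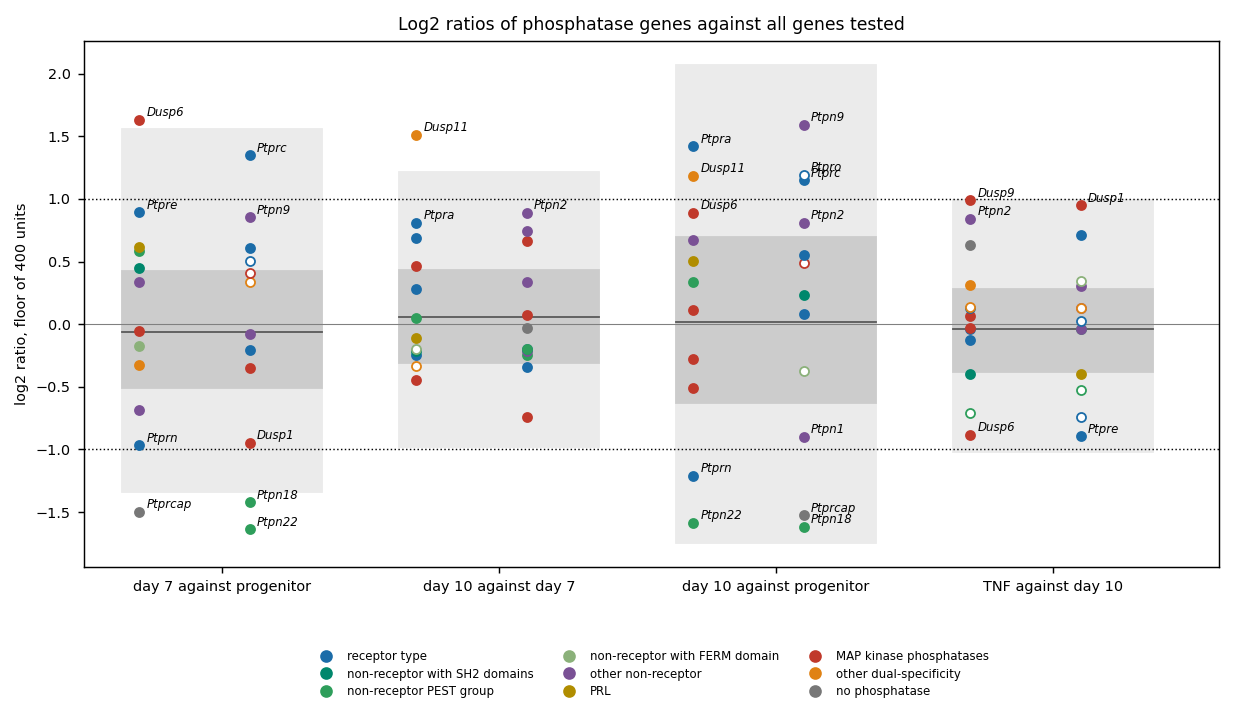
Log2 ratio (y axis, values under 400 units raised to 400) of phosphatase genes and of Ptprcap in 4 comparisons (x axis), 1 point per gene; open points have 1 array at or under 400 units. Grey bands hold the central 50% and 90% of all genes tested with their median as a line, dotted lines mark 2-fold, and most phosphatase genes lie inside the bands.

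TNF-treated day 10 cells were set against untreated day 10 cells to ask what TNF for 16 hours does to these genes. No phosphatase gene reached 2-fold. Of 25 tested 0 were higher and 0 lower, against 4.86% and 5.24% of 4405 genes. Such shares amount to few of 25 genes, so 0 in each direction lies near the background. These counts also depended on the floor and the scaling, as given below. The median log2 ratio was 0.03, against -0.04 over all genes tested. The range ran from -0.89 for Ptpre to 0.99 for Dusp9, and 16 of 25 genes lay within 0.5 of 0. Regardless of sign the median was 0.31, against 0.33 over all genes tested.

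Among genes above 400 units on both arrays, those closest to 2-fold were Dusp9, Dusp1, Ptpre, Dusp6 and Ptpn2. Dusp1 was 1.93-fold higher with TNF, at 5123 against 2655 units, a log2 ratio of 0.95 and over 2 times the probe-set SD of 0.40. Dusp9 was 1.98-fold higher by its shared probe set alone, Ptpn2 was 1.79-fold higher and Ptpro 1.64-fold higher. Dusp6 was 1.84-fold lower and Ptpre 1.86-fold lower, and both then lay close to or under their progenitor levels. Dusp1 and Dusp6 were thus on opposite sides of 0 both at day 7 and with TNF. Their log2 ratios were -0.95 (Dusp1) and 1.63 (Dusp6) at day 7, and 0.95 and -0.88 in TNF-treated cells.

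Ptpn18, Ptpn22 and Ptprn all lay under 400 units with TNF, after 654, 575 and 667 units at day 10. They were at least 1.63-fold, 1.44-fold and 1.67-fold lower. With the floor at 105 units their log2 ratios were -2.64, -1.73 and -1.24, and these 3 genes then passed 2-fold. Granulocyte markers were lower on the same array, with 7 of 7 at least 2-fold lower and a summed level of 18515 units against 146430 at day 10; their part in these phosphatase levels was not tested.

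The promoter window of Dusp1 is shown because, among genes above 400 units on both arrays and read by an unshared probe set, Dusp1 had the largest ratio with TNF. It is on chr17 on the minus strand (chr17:26508473-26508722, 250 bases before the start, GRCm38.p6), and capitals mark TGACGTCA, the cyclic AMP response element bound by CREB and ATF factors, which reads the same on both strands.
Dusp1: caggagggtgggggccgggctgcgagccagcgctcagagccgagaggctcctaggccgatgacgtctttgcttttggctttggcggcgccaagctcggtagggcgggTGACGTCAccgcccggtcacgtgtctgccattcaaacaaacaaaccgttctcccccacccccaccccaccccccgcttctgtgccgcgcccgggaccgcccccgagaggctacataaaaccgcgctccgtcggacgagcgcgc

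TGACGTCA occurred in 2 of the 21 first windows, those of Dusp1 and Ptprs, and in 1.79% of all windows. CACGTG, the E-box letters, occurred in 3 of 21 first windows, those of Dusp1, Dusp2 and Ptprs, and in 7.15% of all windows. The Dusp1 window also held 3 copies of GGGCGG, the GC box bound by Sp factors, on either strand, and 12 of 21 first windows and 35.7% of all windows held at least 1; in any window 14 of the 21 genes did. The median GC content was 63.0% over the 21 first windows and 52.7% over all windows.

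The remaining genes lay near 400 units. Dusp12, linked to ribosome assembly, and Dusp19, which acts in the JNK pathway, had their highest values at 439 and 504 units. Ptpn14, a non-receptor type with a FERM domain, lay between 355 and 520 units. Ptprs, known from nerve and plasmacytoid dendritic cells, passed 400 units with TNF alone, at 408 units, the value just inside the rule; on the values as deposited it lay under 400. The gene just outside was Ptprv, with a highest value of 306 units, followed by Ptpn21 at 232. In all 17 genes never passed 400 units: Ptpn5, Ptpn11, Ptpn13, Ptpn20, Ptpn21, Ptprb, Ptprd, Ptprf, Ptprg, Ptprj, Ptprm, Ptprn2, Ptpru, Ptprv, Ptprz1, Ptp4a3 and Dusp8. A low value there is that of a probe set and does not show that the transcript was absent. Of 17 measured receptor types 7 were described, of 14 non-receptor types 9, of 2 Ptp4a genes 1, of 6 MAP kinase phosphatases 5 and of 3 other dual-specificity genes 3.

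Over the 4 arrays 12 of 25 phosphatase genes had their highest array at least 2-fold above their lowest, and 13 did not. Over all genes above 400 units on at least 1 array the share was 45.2%, so 12 of 25 lies near the background. By role, 5 of 7 receptor types, 2 of 3 PEST-group genes, 2 of 5 MAP kinase phosphatases, 2 of 4 other non-receptor types and 1 of 3 other dual-specificity genes were in that class. Ptpn6, Ptpn14 and Ptp4a2 were not.

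Genes that act with these phosphatases were counted from lists of related genes, by the same rule. Tyrosine kinases of myeloid cells, the partners and targets of CD45, Ptpre and Ptpn22, were counted first. At day 7, 3 of 11 tested had passed 2-fold upwards and 0 downwards (10.6% and 9.85% over all genes), and the list's median log2 ratio was 0.65. Fgr, a Src-family kinase, was 3.40-fold higher at 4173 units, and Tec 3.15-fold. The list also holds Pik3cd, a lipid kinase, at 2.08-fold. At day 10 against the progenitor 6 of 13 were higher and 0 lower (17.3% and 15.0% over all genes), with Tec at 4.33-fold, Pik3cd at 4.37-fold and Jak2, the kinase of many cytokine receptors and a target of Ptpn1, at 2.86-fold. With TNF 1 of 13 was higher (4.86% over all genes), Jak2, at 8453 units against 2956, another 2.86-fold.

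Inhibitory receptors that recruit phosphatases with SH2 domains, SHP-1 or SHP-2 for many but not all of them, were listed next. They were measured for 8 of 18 genes, 5 of them above 400 units. Which phosphatase each receptor recruits was not measured. Sirpa, the receptor for CD47, lay at 3146 units for the progenitor, 17668 at day 7, 30765 at day 10 and 15189 with TNF. It was 5.62-fold higher at day 7 than in the progenitor and 2.03-fold lower with TNF than at day 10. After quantile normalization the Sirpa log2 ratio with TNF was -0.78, under 2-fold. At day 10 against day 7 it was -0.18 in place of 0.80. Fcgr2b, the inhibitory Fc receptor, was 2.97-fold higher at day 7, by a probe set whose name marks it as shared between transcripts. Ceacam1 went the other way, at 5438, 2347, 1149 and 391 units, 2.32-fold lower at day 7. Of the 5, 2 were at least 2-fold higher at day 7 and 1 lower (10.6% and 9.85% over all genes). Ptpn6 differed by 1.37-fold between those arrays. With TNF 0 of 5 were higher and 2 lower, Sirpa and Ceacam1 (4.86% and 5.24% over all genes).

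MAP kinases, the substrates of the dual-specificity members, were measured for 7 of 10 genes, with 5 above 400 units. At day 7, 0 of 5 passed 2-fold in either direction (10.6% and 9.85% over all genes). At day 10 against day 7, 0 of 5 did so (7.29% and 4.84% over all genes). At day 10 against progenitor 1 of 4 was higher and 1 lower (17.3% and 15.0% over all genes). Mapk14, which encodes p38 alpha, a substrate of Dusp1, was read by a probe set whose name marks it as shared between transcripts. It lay at 9057, 6206, 4182 and 2816 units from progenitor to TNF, lower on each later array and 2.17-fold lower at day 10 than in the progenitor. Mapk7, which encodes ERK5, was 2.13-fold higher in that comparison. Among feedback inhibitors and early targets of ERK, 1 of 7 tested was higher at day 7 and 0 lower (10.6% and 9.85% over all genes), with a median of -0.14. That gene was Egr2, a zinc finger factor, at 58 units for the progenitor and 2197 at day 7, at least 5.49-fold higher, whereas Spry4, an ERK feedback inhibitor, lay between 965 and 1082 units on all 4 arrays and Egr1 and Fos stayed under 400.

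Serine and threonine phosphatase subunits were counted beside the tyrosine phosphatases. Of 14 tested at day 7, 0 were at least 2-fold higher and 1, Ppm1g, was lower (10.6% and 9.85% over all genes), with a median of -0.18. At day 10 against day 7 the counts were 0 and 1 of 12 (7.29% and 4.84% over all genes), with Ppp1cb, a catalytic subunit of protein phosphatase 1, 2.62-fold lower. With TNF they were 0 and 2 of 12 (4.86% and 5.24% over all genes), Ppp5c and Ppm1g, at least 2.08-fold and 2.05-fold lower.

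**Figure D4:**
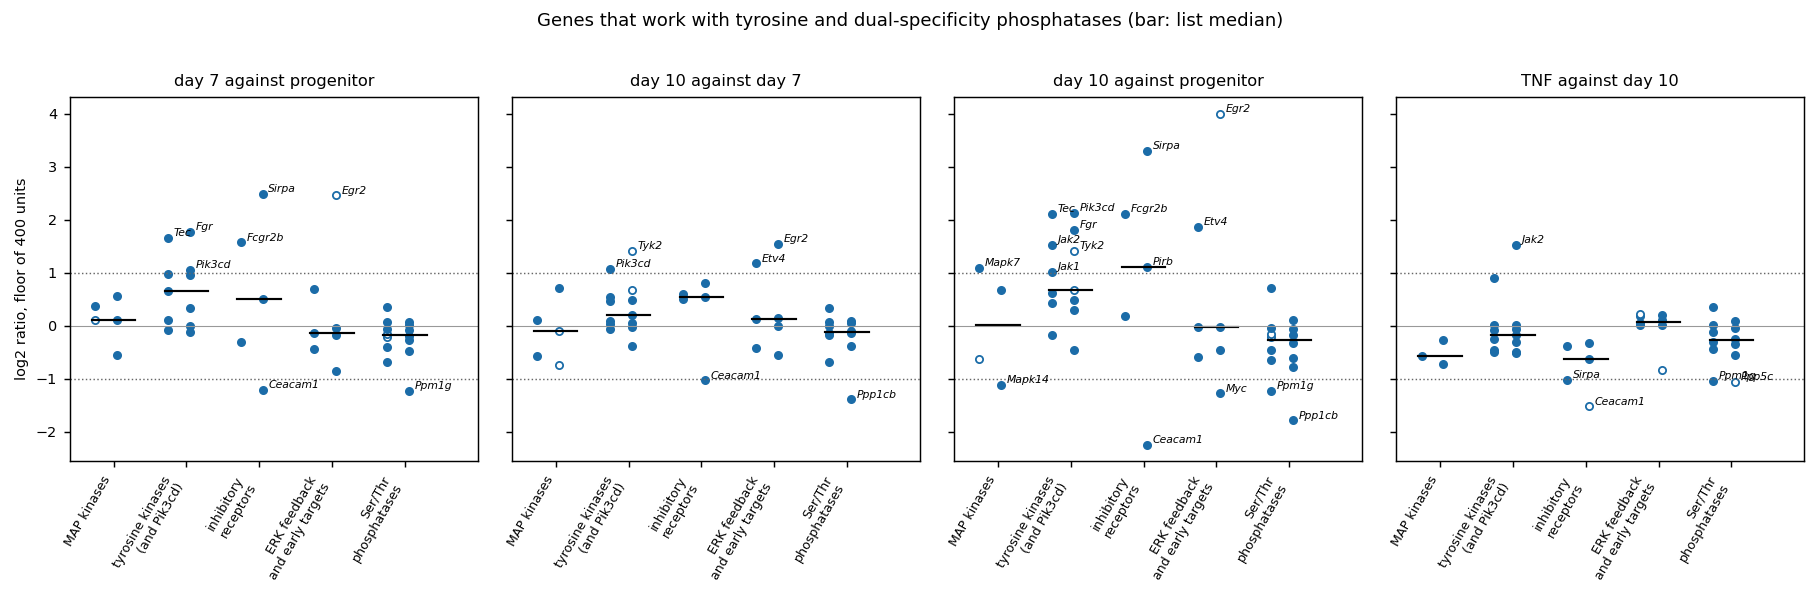
Log2 ratio (y axis, values under 400 units raised to 400) of genes in 5 lists of phosphatase partners and related enzymes (x axis), 1 panel per comparison, 1 point per gene, open where 1 array lies at or under 400 units, with a bar at the list median and dotted lines at 2-fold. Sirpa, Egr2, Tec and Fgr stand above the 2-fold line at day 7, and Ceacam1 lies below it in all 4 panels.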

How the data were processed

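Total RNA of 4 samples was measured on Affymetrix mouse arrays, 1 array per group. The authors deposited probe-set intensities on a linear scale for 12654 probe sets; the labels do not state software, background method or scaling. In the deposited values 22.8% to 24.3% of probe sets lie below 0 on each array, which happens where background or mismatch signal is subtracted. The mean of the central 96% lies between 998.8 and 999.03 on every array.

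Arrays were scaled to a common 75th percentile by factors of 0.962 to 1.05, values under 400 units were raised to 400, and log2 ratios were taken (Python 3.11.15, numpy 2.4.6, pandas 2.3.3). A gene counted when 2 arrays differed at least 2-fold and at least 1 lay above 400. Gene names came from the platform's annotation table, in which 10298 probe sets had 1 symbol; the probe set of Ptp4a1 has several symbols and was not used. Symbols were updated by Entrez number. Every matching gene above 400 units is described, with all 4 levels for those past 2-fold and the 8 with the highest mean; of a related list, up to 4 genes with the largest ratio per comparison are named. Levels of other members, of Csk, Spry4, Egr1 and Fos, and the promoter search were added after values were seen. The members and gene lists were chosen with earlier results of these data known. The script that counts genes was tested on simulated data, which bears on the script and not on these counts. With 1 array per group there is no replicate and no test, and the number of arrays limits the precision. Promoter windows come from RefSeq, GRCm38.p6. Protein sequences were not used here.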

Additional observations from a re-analysis of the deposited data

How the results depend on the processing

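Counts of phosphatase genes past 2-fold depended on the floor, the fold rule and the scaling. With the floor at the 40th percentile, 105 units, day 7 against progenitor gave 4 higher (2 as reported, with Dusp16 and Ptpro added), day 10 against day 7 gave 1 lower (Ptpn21, against 0), and TNF against day 10 gave 1 higher (Ptprs) and 3 lower (Ptpn18, Ptpn22 and Ptprn, against 0). With a floor of 800 units day 7 against progenitor gave 1 higher (Ptprc), and day 10 against progenitor 3 higher in place of 5. A 3-fold rule gave 1 higher and 1 lower at day 7 (Dusp6 and Ptpn22), 0 at day 10 against day 7, and 1 higher at day 10 against progenitor (Ptpn9). For TNF against day 10, Dusp9 passed 2-fold in 3 settings, with 1 higher each in the values as deposited, after quantile normalization and with the median over probe sets, and in none without shared probe sets, an alternative chosen after seeing the data. For day 10 against progenitor, 4 were lower in place of 3 in the values as deposited and after quantile normalization (Ptpn1 added), and 2 with the floor of 800 units or the 3-fold rule. With the 40th percentile floor 6 were higher there. Of 92 alternative values of the 15 ratios past 2-fold, which include 2 of Ptprcap, 5 moved by more than the probe-set SD and 0 changed sign. Over all genes, 60.1% of calls at day 10 against day 7 were higher as scaled, 49.0% in the values as deposited, whose median is -0.07 in place of 0.05, and 49.7% after quantile normalization; day 10 against progenitor had a median of -0.09 as deposited in place of 0.02. No paired analysis was possible because each group has 1 array.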

Other observations

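Phosphatases of related families whose symbols fall outside the rule were also read. The list was drawn up after values of these data had been seen; it holds 39 genes, 22 of them measured and 17 above 400 units on at least 1 array. At day 7 against progenitor 1 of 14 was at least 2-fold higher and 3 lower (10.6% and 9.85% over all genes). At day 10 against progenitor 3 of 15 were higher and 5 lower (17.3% and 15.0%), at day 10 against day 7 0 of 14 were higher and 1 lower (7.29% and 4.84%), and with TNF 1 of 13 was higher and 1 lower (4.86% and 5.24%). The 3 lower at day 7 were Mtm1, Cdkn3 and Cdc25a. Mtm1, a lipid phosphatase, lay at 6281, 643, 261 and 147 units and was 9.77-fold lower, by a probe set whose name marks it as shared within a gene family. Cdc25a, which activates cyclin-dependent kinases, lay at 2412 units for the progenitor and 717, 601 and 668 on the later arrays, and was 3.36-fold lower at day 7. Cdkn3, which acts on Cdk2, lay at 2175, 625, 184 and -42 units and was 3.48-fold lower. Acp2, the lysosomal acid phosphatase, lay at 528, 1667, 2274 and 2797 units, highest with TNF and 3.16-fold higher at day 7 than in the progenitor.

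Inpp5d, which encodes SHIP-1, a lipid phosphatase recruited by the same kind of inhibitory receptor as SHP-1, lay at 3751 units for the progenitor, 2821 at day 7, 4206 at day 10 and 1259 with TNF. The TNF array was the low one, 3.34-fold under day 10, whereas Ptpn6 was 1.32-fold lower between those arrays. Inppl1, which encodes the related SHIP-2, lay at 200, 291, 383 and 820 units and was at least 2.05-fold higher with TNF. The 2 genes thus had ratios of opposite sign between the same 2 arrays, with no replicate to set them against.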
